A study of Rattus norvegicus with 6 samples.

Results

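Cycling myeloid nuclei, that is nuclei holding RNA of myeloid immune cells together with RNA of cell division genes, made up 599 of the 73826 nuclei in 6 count tables of rat brain. Each nucleus was chosen by its own UMIs, the identifiers that count each captured RNA molecule once. It had to hold at least 500 UMIs, 250 to 5000 genes and at most 5% mitochondrial UMIs, which left 73649 nuclei. At least 3 UMIs and at least 0.2% of all UMIs had to come from the 7 myeloid genes Ptprc, Csf1r, Inpp5d, Dock8, Arhgap15, Lyz2 and Cx3cr1. No more than 3 UMIs could come from the neuronal genes Snap25, Syt1 and Rbfox3, and none from Pdgfra and Cspg4, which mark oligodendrocyte precursor cells (OPC). These limits selected 2767 myeloid nuclei, and the 599 cycling ones among them also held at least 2 UMIs of Mki67, Top2a, Cenpf and Knl1. The levels of these 16 genes were used to choose the nuclei, so they are given below as a description. The same holds for mitochondrial genes, whose share of UMIs was limited, and for other neuron genes, which go with the 3 neuronal genes of the rule. The 16 genes stayed in the fits across all genes, and their calls are set apart below.

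The nuclei came from male wild-type Wistar rats, 12 weeks old, at 48 h after surgery. The right middle cerebral artery was blocked permanently with a filament (MCAO), and Sham rats had the same surgery without insertion of the filament. Nuclei of all rats of one severity and hemisphere were pooled: Sham L and Sham R came from the same 4 rats. The mMCAO libraries were made from 3 rats whose infarction was moderate and the sMCAO libraries from 4 whose infarction was severe, with contra for the unoccluded and ipsi for the occluded side. The 3 groups, Sham, MCAO contra and MCAO ipsi, thus had 2 libraries each, which are not independent animals of 1 condition, and each MCAO ipsi library shares its rats with an MCAO contra library. Preparations of nuclei are known to recover immune cells poorly, so shares of nuclei are not shares of cells in the tissue. Sham L held 44214966 UMIs and Sham R 34777290. The moderate and severe libraries held 52513380 and 34519202 UMIs on the contralateral side, and 44829633 and 33012945 on the ipsilateral side. Between 118 and 281 nuclear barcodes were shared by any pair of libraries. Of the 599 cycling nuclei 44 had a barcode that also occurred in another library, 1 of these belonged to a myeloid nucleus there, and 0 barcodes were cycling myeloid in 2 libraries.

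Myeloid cells of the brain comprise microglia, which settle the parenchyma before birth and renew themselves by division, macrophages of the meninges and perivascular spaces (border macrophages), and, after injury, monocytes that enter from the blood and become macrophages. Division starts when D-type cyclins with Cdk4 and Cdk6 release E2F factors, which turn on genes for DNA replication. Genes for mitosis are turned on later by the MuvB complex with B-Myb and Foxm1, often through a cell cycle homology region (CHR, with the letters TTTGAA) and CCAAT boxes close to the start of transcription.

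Cycling nuclei were found almost only after MCAO, and most of them on the occluded side. MCAO ipsi held 561 of them, which was 93.7% of all cycling myeloid nuclei, MCAO contra held 37 and Sham held 1. In Sham L, 1 of 24 myeloid nuclei was cycling (4.17%, exact Clopper-Pearson 95% interval 0.105 to 21.1%). In Sham R, 0 of 25 were, which allows a share of up to 12.0% by the limit of 3 counts (exact upper bound 13.7%), so that the Sham share could not be told from that of MCAO contra at this depth. On the contralateral side 15 of 212 myeloid nuclei were cycling in mMCAO contra (7.08%, interval 4.01 to 11.4%) and 22 of 135 in sMCAO contra (16.3%, interval 10.5 to 23.6%). On the ipsilateral side the counts were 236 of 896 in mMCAO ipsi (26.3%, interval 23.5 to 29.4%) and 325 of 1475 in sMCAO ipsi (22%, interval 19.9 to 24.2%). Both ipsilateral shares lay above both contralateral shares, but the intervals of sMCAO contra and sMCAO ipsi overlapped, and 2 libraries against 2 cannot reach an exact permutation p below 0.33. The intervals cover counting error only.

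Myeloid nuclei as a whole also differed in number. They were 0.183% of the nuclei in both Sham L and Sham R and 1.46% and 1.25% in the moderate and severe MCAO contra libraries. On the ipsilateral side they were 6.92% in the moderate and 17% in the severe library. The severe library thus held more myeloid nuclei per nucleus than the moderate one on the ipsilateral side, while its cycling share of them was not higher.

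**Figure D1:**
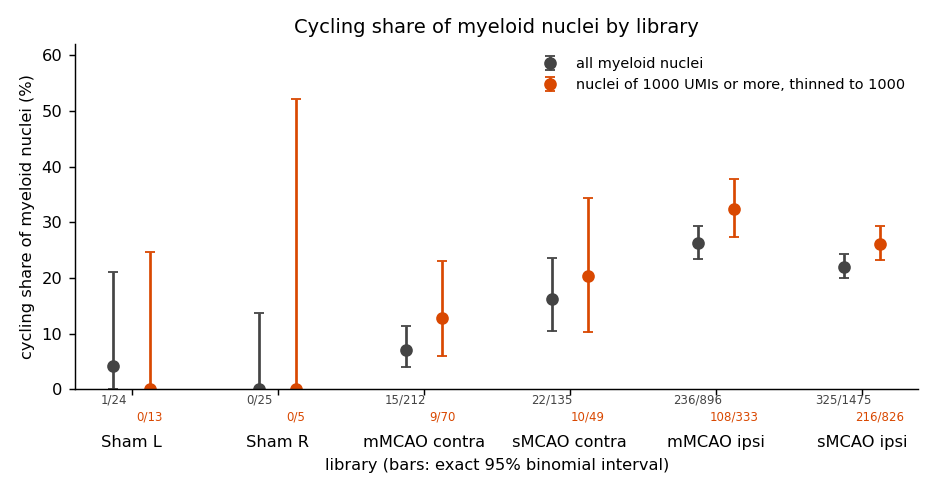
Share of myeloid nuclei that were cycling (y axis, percent) in each of the 6 libraries (x axis), for all myeloid nuclei (dark points) and for nuclei thinned to 1000 UMIs (orange points). Bars are exact 95% binomial intervals and the fractions under the axis are cycling over myeloid nuclei; both MCAO ipsi libraries, at 26.3% and 22%, lie above both MCAO contra libraries, at 7.08% and 16.3%.

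Depth moved with the selection, and where this difference came from was not tested. Median UMIs of cycling and non-cycling nuclei were 1264 and 716 in the mMCAO contra library, 1036.5 and 713 in sMCAO contra. On the occluded side they were 1216 and 709.5 (mMCAO ipsi) and 1795 and 971 (sMCAO ipsi). Nuclei under 1000 UMIs were then left out and the others thinned to 1000 UMIs each. The limits on myeloid, neuronal, OPC and cell cycle UMIs were applied again to the thinned counts. A nucleus could thus enter or leave the myeloid nuclei or change state. Over the 4 MCAO libraries Mki67 was found in 10.7% of thinned non-cycling nuclei, against 6.79% without thinning. After thinning the cycling share was 12.9% (9 of 70 nuclei) and 20.4% (10 of 49) in the moderate and severe contralateral libraries. It was 32.4% (108 of 333) and 26.2% (216 of 826) in the ipsilateral ones. The order of the 4 libraries was the same as without thinning. In Sham L and Sham R the thinned counts were 0 of 13 and 0 of 5, which allow shares of up to 23.1% and 60.0% by the limit of 3 counts (exact upper bounds 24.7% and 52.2%). Nuclei of neurons, which do not divide, served as a reference. They held at least 10 UMIs of Snap25, Syt1 and Rbfox3, none of Pdgfra and Cspg4 and at most 1 of the 7 myeloid genes. The last limit left out neuronal nuclei with more myeloid RNA, so their shares of myeloid lists do not measure free RNA. Between 0.0522% of neuronal nuclei in Sham R and 0.888% in sMCAO ipsi held 2 or more UMIs of the 4 cell cycle genes, at median depths of 2902 and 6707 UMIs. After thinning 0 neuronal nuclei did in any library.

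The threshold of 2 UMIs lay within a continuous range. Exactly 2 UMIs of the 4 genes were held by 181 nuclei, with a median of 1362 UMIs, and exactly 1 by 325 nuclei just outside, with a median of 1020 UMIs. Of the nuclei at 2 UMIs, 90.6% held a UMI of other mitotic genes (the lists of mitotic cyclins and kinases, kinetochore, spindle, cytokinesis and mitotic exit, without the 4 genes), against 71.7% of those at 1 UMI, 46.4% of the 1795 nuclei at 0 and 99.3% of the 417 nuclei at 3 or more. The summed level of these mitotic lists was 5543 CPM (UMIs scaled to a common library total) at 2 UMIs, 3304 CPM at 1, 1145 CPM at 0 and 10277 CPM at 3 or more. The summed level of the microglia list was 1557, 1252, 1347 and 1415 CPM in the same order. The libraries differed in this: at 0, 1, 2 and 3 or more UMIs the list was at 1021, 1111, 1526 and 1372 CPM in sMCAO ipsi and at 1762, 1473, 1657 and 1467 CPM in mMCAO ipsi.

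The levels of the rule's own genes are given as a description, because the selection set them. Pooled over the 4 MCAO libraries, which held 598 of the cycling nuclei, Mki67, the antigen of the Ki-67 stain, was found in 74.1% of cycling and 6.79% of non-cycling nuclei. Top2a, the topoisomerase that untangles replicated chromosomes, was found in 58.4% and 1.42%, Cenpf, a kinetochore protein, in 53.8% and 2.26%, and Knl1, the scaffold of the outer kinetochore, in 55.5% and 4.86%. Csf1r, the receptor that microglia and macrophages need to survive, was found in 55.2% and 39.9%, and Inpp5d, a lipid phosphatase of blood cells, in 76.1% and 61.2%. At equal depth the 2 myeloid genes came closer, with 39.9% and 39.1% for Csf1r and 68.5% and 58.8% for Inpp5d among thinned nuclei. Markers that the rule did not use were also looked at. A UMI of the microglia list was held by 71.1% of the 343 thinned cycling nuclei (interval 66.0 to 75.9%), against 60.4% of 935 thinned non-cycling and 3.95% of 2429 thinned neuronal nuclei. A UMI of the neutrophil list was held by 5.25%, 5.35% and 0.124% of these and one of the lymphocyte list by 2.33%, 2.25% and 0.823%. Defining genes of other blood cells were sparse: of the matched lymphocyte markers 7 of 10 had no UMI in any cycling nucleus (Cd3d, Cd3g, Cd79a, Cd79b, Ms4a1, Nkg7 and Themis), as had 5 of 9 neutrophil markers (Mmp8, Mmp9, Ngp, Camp and Ltf).

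What cycling nuclei expressed was compared with non-cycling myeloid nuclei of the same library, on UMIs summed per library and state and tested with edgeR's quasi-likelihood test with the library as a block (4 libraries, 5858 genes). Genes with an adjusted p under 0.05 were called if their log2 fold change was 0.6 or more in size. The test called 179 genes higher and 114 lower, which is 5% of the genes tested (3.06% higher and 1.95% lower), and the median log2 fold change of all genes was -0.05. Of the rule's genes 13 were in this fit, and 4 of the rises (Mki67, Top2a, Cenpf and Knl1) and 2 of the falls (Syt1 and Lyz2) are theirs, which leaves 175 and 112 among the 5845 other genes. The falls rest on the pairing of states within a library: with no replicate block edgeR called 106 genes higher and 0 lower (115 lower at an unadjusted p under 0.05), and DESeq2 called 120 higher and 12 lower. The counts also rest on the ipsilateral libraries, with 86 genes higher and 13 lower without sMCAO ipsi and 109 and 27 without mMCAO ipsi. The p-values measure how far the difference between the states varied among these 4 libraries of pooled rats. Each contralateral library shares its rats with an ipsilateral one, yet the fit treats the libraries as independent pairs of states.

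Many of the rises were cell division genes other than the 4 chosen ones. They were selected together with the rule's genes, so the following counts describe the nuclei and are not a test. Of 126 genes in 11 cell cycle lists 123 could be matched and 72 passed the filter on low counts, of which 56 were called higher and 1 lower, and the median log2 fold change of the 72 was 1.84. In several mitotic lists every tested gene was called higher: 17 of 17 tested spindle genes, 9 of 9 mitotic cyclins and kinases, 7 of 7 condensin genes, 7 of 7 cytokinesis genes and 5 of 5 kinetochore genes. DNA repair genes followed with 5 of 6. Of 7 tested replication genes 0 were called in either direction, beside 5% of all genes, so this count says nothing particular of the list. All 7 estimates were above 0 (median 0.31).

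Spindle genes are described first. Kif11, the motor that pushes the spindle poles apart, was at 494, 321, 292 and 309 CPM in cycling nuclei of the contralateral (moderate, severe) and then the ipsilateral (moderate, severe) libraries, an order kept for all such values, and at 27.3, 27.0, 53.0 and 31.8 CPM in non-cycling nuclei. The summed level was higher in cycling nuclei of every library, and the log2 fold change was 3.01. Kif23, a motor of the central spindle, had the largest change of the lists (log2 fold change 3.8), and Hmmr, a spindle assembly factor, was at 315, 178, 174 and 148 CPM against 16.4, 0, 29.1 and 10.3 CPM in the same order of libraries (log2 fold change 3.35). Tpx2, which activates Aurora A, and Ckap5, a microtubule polymerase, changed by 3.07 and 1.45 on the log2 scale.

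Kinetochore and kinase genes had similar changes. The kinetochore motor Cenpe was at 225, 357, 375 and 329 CPM in cycling nuclei and at 27.3, 45.1, 51.3 and 27.0 CPM in non-cycling ones, a log2 fold change of 3.17, and Sgo2, a protector of cohesion at the centromere, changed by 3.26. Cdk1, the kinase that starts mitosis, was at 44.9, 143, 57.9 and 74.1 CPM against 5.45, 9.01, 5.13 and 13.5 CPM (log2 fold change 2.72), and the checkpoint kinase Bub1b changed by 2.61. Ect2, which positions the cleavage furrow, was at 315, 428, 408 and 321 CPM against 27.3, 0, 56.4 and 34.9 CPM (log2 fold change 3.14). The condensin subunits Ncapg and Smc4 changed by 2.60 and 1.84, and Birc5, the survivin subunit of the chromosomal passenger complex, by 2.46.

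Genes that act earlier in the cycle were more mixed. Of the G1 and S entry list E2f7, a late repressor of E2F targets, was called higher (log2 fold change 1.80), as were cyclin D1 (Ccnd1, 1.06) and the pocket protein Rbl1 (0.77), while cyclin D3 (Ccnd3) was called lower (-0.63), at 270, 214, 146 and 142 CPM against 267, 234, 231 and 226 CPM. Ccnd3 was lower in cycling nuclei of both ipsilateral libraries and of sMCAO contra. Among genes for nucleotide supply thymidine kinase (Tk1) was called (1.24), and among DNA repair genes Polq, Fancd2, Brip1 and Blm had the largest changes (2.30, 1.85, 1.57 and 1.31). Of the MuvB and Foxm1 list the DNA-binding subunit Lin54 was called (1.17) and Foxm1 had no UMI in either state of the 4 libraries, so it says nothing of the difference. None of the 8 cell cycle brakes, such as Cdkn1a, passed the filter on low counts.

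**Figure D2:**
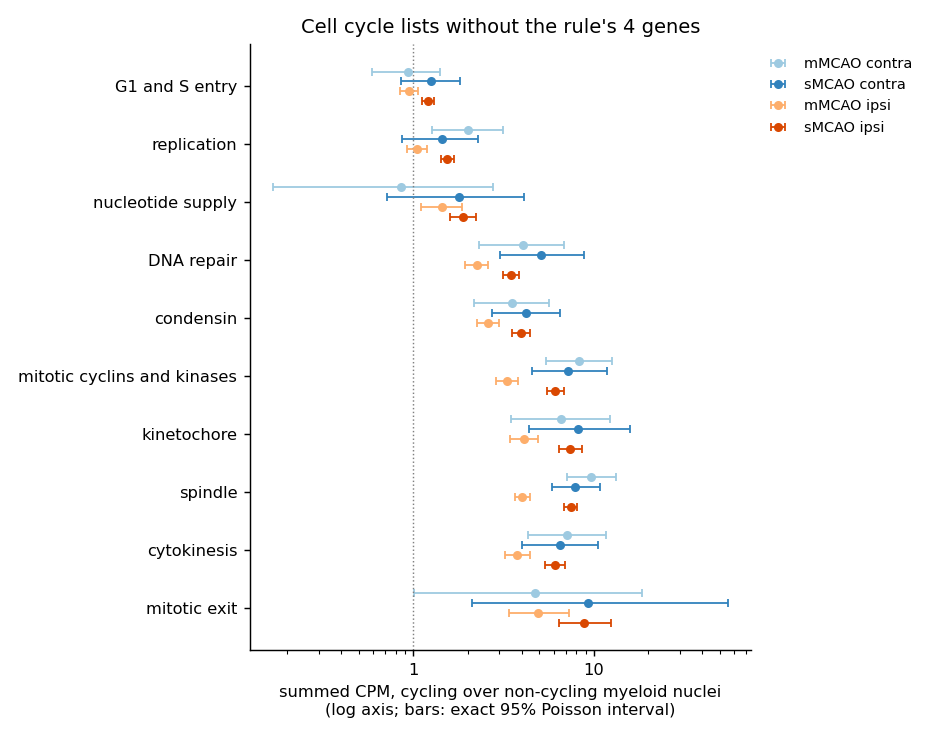
Ratio of the summed CPM of cycling to non-cycling myeloid nuclei (x axis, log scale) for 10 cell cycle lists without the 4 genes of the rule (y axis), with 1 point per MCAO library and exact 95% Poisson intervals as bars. Spindle genes range from 4.03 in mMCAO ipsi to 9.68 in mMCAO contra, while replication genes range from 1.05 to 2.02.

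Replication and mitotic RNA could occur in the same nucleus. After thinning, 67.3% of the 343 cycling nuclei held UMIs of both the mitotic lists named above and the lists of replication and nucleotide supply, 28.9% of the mitotic lists only and 1.75% of the other lists only. In sMCAO ipsi the share with both was 73.6%, against 56.5% in mMCAO ipsi. Of the replication list alone 61.2% of thinned cycling nuclei held a UMI, against 49.8% of non-cycling and 15.6% of neuronal ones. The share of non-cycling nuclei with both kinds was 41.4% of 935 thinned nuclei, against 7.37% of 2429 thinned neuronal nuclei.

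The promoters of 2 of the rule's genes and of 2 called genes are shown because mitotic genes share short promoter elements. Each line holds the 200 bases before the RefSeq gene start, 5′ to 3′ on the strand of the gene, with matches to the CHR (TTTGAA) and to the CCAAT box (CCAAT) on either strand in capitals. Coordinates are those of GRCr8, a later rat build than the mRatBN7.2 of the counts. Mki67 is at chr1:199952594-199952793 (minus strand), Top2a at chr10:84473094-84473293 (minus strand), Cdk1 at chr20:19265093-19265292 (plus strand) and Hmmr at chr10:25665216-25665415 (minus strand).
Mki67: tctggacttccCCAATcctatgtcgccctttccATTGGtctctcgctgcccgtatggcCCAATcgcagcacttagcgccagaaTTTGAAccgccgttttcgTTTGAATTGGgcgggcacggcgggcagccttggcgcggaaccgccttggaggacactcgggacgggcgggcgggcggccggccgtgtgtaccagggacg
Top2a: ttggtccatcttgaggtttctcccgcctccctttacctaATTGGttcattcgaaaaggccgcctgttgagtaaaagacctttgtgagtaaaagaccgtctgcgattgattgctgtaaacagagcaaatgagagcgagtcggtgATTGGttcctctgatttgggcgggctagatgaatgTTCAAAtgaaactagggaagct
Cdk1: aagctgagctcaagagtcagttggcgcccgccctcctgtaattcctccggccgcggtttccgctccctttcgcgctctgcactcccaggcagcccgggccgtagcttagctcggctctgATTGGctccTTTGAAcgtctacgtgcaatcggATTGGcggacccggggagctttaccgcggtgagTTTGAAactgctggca
Hmmr: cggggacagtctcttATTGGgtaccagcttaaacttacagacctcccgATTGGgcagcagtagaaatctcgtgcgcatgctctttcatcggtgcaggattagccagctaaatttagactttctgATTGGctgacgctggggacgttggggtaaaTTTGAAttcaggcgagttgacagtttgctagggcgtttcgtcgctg
All 4 windows shown held both motifs, which not every such gene does: of the rule's 4 cell cycle genes 3 held a CHR, 3 a CCAAT box and 2 both within 250 bases before the start. In Mki67 the CHR that starts 99 bases before the gene start overlaps a reversed CCAAT box that starts at 94, and in Hmmr the CHR starts at 46 and the nearest CCAAT box at 76. Within 250 bases before the start, both motifs were found in 15 of the 49 called cell cycle genes with a RefSeq promoter (30.6%), in 192 of 4535 tested genes with one (4.23%) and in 5.76% of all 27457 promoters. The CHR, with or without a CCAAT box, was found in 40.8%, 10.4% and 16.0% of these sets and the CCAAT box, with or without a CHR, in 53.1%, 35.1% and 34.3%. A match of letters is not evidence of binding, and windows without a match say nothing of other elements.

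Cycling OPC nuclei were chosen with the same limit on the same 4 cell cycle genes. The depths differed, with median UMIs of 1216 in cycling myeloid and 1376 in cycling OPC nuclei of mMCAO ipsi and of 1795 and 3267 in sMCAO ipsi, so a limit of 2 UMIs stands for a lower level in OPC nuclei, and its part in the comparison was not tested. OPC nuclei held at least 2 UMIs of Pdgfra and Cspg4 and at most 1 of the myeloid genes, and 21 of 96 were cycling in mMCAO ipsi (21.9%) and 91 of 249 in sMCAO ipsi (36.5%). In these 2 libraries edgeR called 796 genes higher in cycling myeloid and 902 higher in cycling OPC nuclei, 22.7% of the 7468 genes tested. These include 7 and 3 genes that chose the nuclei, and without them the counts were 789 and 899. Of 106 tested cell cycle genes 4 were called, and the median log2 fold change of the 106 was -0.14, beside 0.09 for all genes. Both kinds of nuclei were chosen by the same 4 cell cycle genes, so likeness in these lists is partly set by the choice. Cyclin D3 was higher in myeloid nuclei, at 146 and 142 CPM in mMCAO ipsi and sMCAO ipsi against 33.0 and 41.7 CPM in OPC nuclei (log2 fold change 1.76, SE 0.59, adjusted p 0.0158), and so was Rbl1 (1.41, SE 0.50, adjusted p 0.0251). Cyclin D1 was lower, at 46.9 and 97.3 CPM against 165 and 196 CPM (-1.28, SE 0.50, adjusted p 0.0492), and the formin Diaph3, which builds actin filaments in the cleavage furrow, was lower at 190 and 193 CPM against 1122 and 946 CPM (-2.43, SE 0.44, adjusted p 8.4e-07). No tested replication, condensin, kinetochore, kinase or spindle gene was called. This fit has 1 residual degree of freedom and recovered 46% of simulated 4-fold changes, so a gene that was not called may still differ. Ccnd3 and Rbl1 were called with RLE factors, and Ccnd3 also with no filter on low counts and with no replicate block (adjusted p 0.0415 and 0.0352), where Rbl1 was not (0.0661 and 0.125), and DESeq2 called neither (0.311 and 0.350). Ccnd1 was called in none of the 4 alternatives (adjusted p 0.0569 to 0.480) and Diaph3 in all 4.

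Whether the dividing nuclei were microglia or macrophages was examined with marker lists that shared no gene with the rule. Of 10 listed microglia genes 9 could be matched and 5 passed the filter, with a median log2 fold change of -0.02 beside -0.05 for all genes. None of the 5 was called in either direction, beside 5% of all genes, so the count says nothing particular of the list. P2ry12, the purinergic receptor of resting microglia, was at 539, 357, 527 and 399 CPM in cycling nuclei, against 262, 325, 510 and 297 CPM in non-cycling ones. It was the higher in cycling nuclei of all 4 libraries, yet was not called (log2 fold change 0.24, SE 0.18, adjusted p 0.639). Slco2b1, a transporter and the most abundant gene of the list by UMIs not divided by gene length, was at 854, 321, 389 and 454 CPM against 840, 658, 544 and 302 CPM, higher in 2 libraries and lower in the others (log2 fold change -0.14, adjusted p 0.856). Sall1, a transcription factor of microglia, was not called (log2 fold change 0.15, SE 0.22, adjusted p 0.859). It was higher in cycling nuclei of 2 libraries and lower in those of 2. Tmem119 was sparse, with 18 UMIs in the cycling nuclei of the 2 ipsilateral libraries, and Siglech and Olfml3 had none.

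Summed over the list, the 2 ipsilateral libraries differed. The microglia list was at 1752, 1321, 1525 and 1407 CPM in cycling nuclei and at 1881, 1749, 1699 and 1040 CPM in non-cycling ones. Among non-cycling nuclei the level was lowest in sMCAO ipsi. The ratio of cycling to non-cycling was 1.35 (exact Poisson 95% interval 1.24 to 1.47) in sMCAO ipsi and 0.898 (0.808 to 0.997) in mMCAO ipsi, with 0.932 (0.651 to 1.30) in mMCAO contra and 0.755 (0.516 to 1.08) in sMCAO contra. After thinning it was 1.21 in sMCAO ipsi and 0.956 in mMCAO ipsi, and in sMCAO contra it turned to 1.41.

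In the ipsilateral libraries the monocyte-derived list was lower in cycling nuclei. It was at 777 CPM in cycling and 1750 CPM in non-cycling nuclei of sMCAO ipsi, a ratio of 0.444 (interval 0.402 to 0.489), and at 483 and 629 CPM in mMCAO ipsi, a ratio of 0.767 (0.637 to 0.921). After thinning the ratio was 0.516 in sMCAO ipsi but 1.09 in mMCAO ipsi, where the direction was thus not kept. Its most abundant gene Gpnmb, a membrane protein of lipid-laden phagocytes, was at 345 and 598 CPM in cycling and at 395 and 942 CPM in non-cycling nuclei of mMCAO ipsi and sMCAO ipsi (log2 fold change -0.20 over all 4 libraries, adjusted p 0.823). Of 10 listed genes 9 could be matched and only 2 were tested, of which 1 was called lower, beside 1.95% of all genes. With 2 tested genes this count says little of the list. The called gene was Itga4, the integrin subunit by which monocytes attach to vessel walls. Itga4 was at 44.9, 35.7, 82.8 and 92.7 CPM in cycling nuclei against 27.3, 45.1, 97.5 and 211 CPM (log2 fold change -0.83, SE 0.25, adjusted p 0.0407). Its fall was largest in sMCAO ipsi, and it was higher in mMCAO contra on 1 UMI. It was not called with no replicate block (adjusted p 1.0), by DESeq2 (1.0), with no filter on low counts (0.116), with at least 3 cycle UMIs (0.0669), with at least 5 myeloid UMIs (0.0509), with the highest doublet scores left out (0.0970) or after thinning (-0.39, 0.854). Fn1, fibronectin, and Ccr2, the chemokine receptor of recruited monocytes, were too sparse for the test, with 17 and 8 UMIs in 325 cycling nuclei of sMCAO ipsi against 348 and 63 UMIs in 1150 non-cycling ones. In mMCAO ipsi Fn1 was at 30.3 CPM in cycling and 44.5 CPM in non-cycling nuclei, and Ccr2 had 3 and 4 UMIs.

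The summed level of the border macrophage list did not differ between the states on the ipsilateral side by more than counting error, with ratios of 0.922 (0.609 to 1.38) in mMCAO ipsi and 0.925 (0.790 to 1.08) in sMCAO ipsi. Its most abundant gene Mrc1, the mannose receptor, was at 55.2 and 168 CPM in cycling and at 61.6 and 259 CPM in non-cycling nuclei of these libraries (log2 fold change -0.31 over all 4 libraries, adjusted p 0.704). In sMCAO ipsi 18.2% of 325 cycling and 20.6% of 1150 non-cycling nuclei held a UMI of the list. At equal depth the shares there were apart, with 11.1% of cycling (interval 7.25 to 16.1%) and 21.0% of non-cycling nuclei (17.8 to 24.4%) and a ratio of summed levels of 0.731. In the contralateral libraries the ratios were 10.1 and 3.43, on 16 and 13 UMIs in cycling nuclei. Of those 16 UMIs in mMCAO contra, 15 came from 1 nucleus, and the value rests on it. With at least 5 myeloid UMIs per nucleus the ratio in sMCAO contra was 0.812 instead of 3.43.

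**Figure D3:**
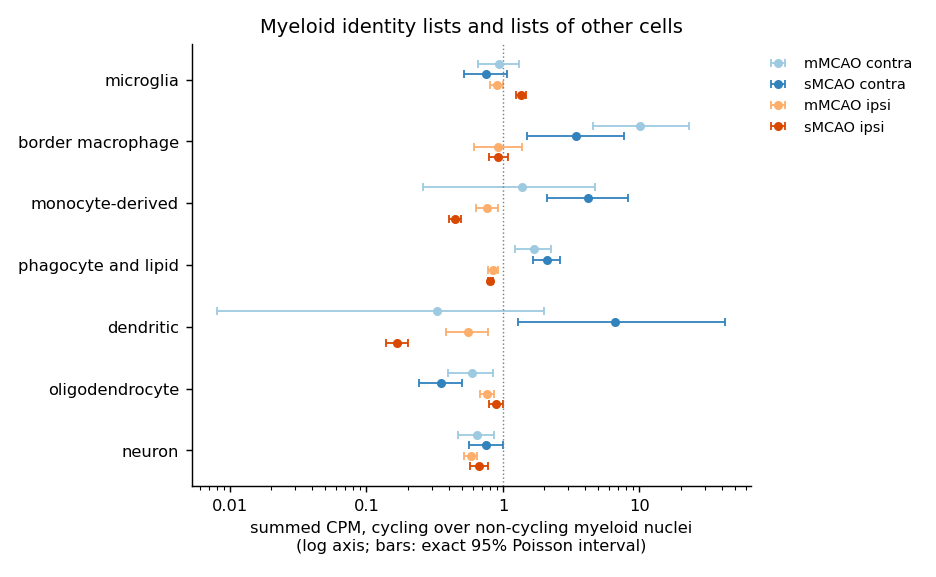
Ratio of the summed CPM of cycling to non-cycling myeloid nuclei (x axis, log scale) for 5 myeloid marker lists and for the lists of oligodendrocytes and neurons (y axis), with 1 point per MCAO library and exact 95% Poisson intervals as bars. In sMCAO ipsi the microglia list is at 1.35 and the monocyte-derived and dendritic lists are at 0.444 and 0.167, while the wide contralateral bars rest on few UMIs.

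Single nuclei were also sorted by which lists they held after thinning to 1000 UMIs. In sMCAO ipsi 42.1% of 216 cycling nuclei held microglia UMIs only (interval 35.5 to 49.0%), against 26.2% of 610 non-cycling nuclei (22.8 to 29.9%). Nuclei with border macrophage or monocyte-derived UMIs only were 17.6% of cycling (12.8 to 23.3%) and 31.3% of non-cycling nuclei (27.6 to 35.2%). In mMCAO ipsi the 2 states were closer, with 43.5% of 108 cycling and 45.3% of 225 non-cycling nuclei holding microglia UMIs only and 7.41% and 12.9% holding macrophage UMIs only. A further 29.2% of cycling nuclei in sMCAO ipsi and 24.1% in mMCAO ipsi held UMIs of both kinds, and 11.1% and 25% of neither. Of 2429 thinned neuronal nuclei, which were chosen to hold little myeloid RNA, 3.79% held microglia UMIs only and 1.85% macrophage UMIs only. Gpnmb weighed heavily in the macrophage class, with 387 of the 503 UMIs of the monocyte-derived list in cycling and 1186 of 2204 in non-cycling nuclei of sMCAO ipsi before thinning. When Gpnmb was left out, a choice made after seeing the data, nuclei with macrophage UMIs only were 7.87% of cycling (4.65 to 12.3%) and 21.8% of non-cycling nuclei (18.6 to 25.3%) in sMCAO ipsi, and those with microglia UMIs only were 57.9% (51.0 to 64.5%) and 42.1% (38.2 to 46.2%). In mMCAO ipsi the macrophage shares were then 2.78% and 7.11%, on 3 and 16 nuclei.

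Read the other way, cycling was found in every marker class of the ipsilateral libraries. In sMCAO ipsi 36.3% of 251 thinned nuclei with microglia UMIs only were cycling (interval 30.3 to 42.5%), 16.6% of 229 with macrophage UMIs only (12.0 to 22.1%) and 24.7% of 255 with both (19.5 to 30.5%). In mMCAO ipsi the shares were 31.5% of 149 (24.2 to 39.7%), 21.6% of 37 (9.83 to 38.2%) and 38.2% of 68 (26.7 to 50.8%). Nuclei that held neither kind of UMI were cycling in 26.4% of 91 in sMCAO ipsi (17.7 to 36.7%) and in 34.2% of 79 in mMCAO ipsi (23.9 to 45.7%). The intervals of the microglia and macrophage classes were apart in sMCAO ipsi and overlapped in mMCAO ipsi, and nuclei of 1 library share their rats, so neither is a test between conditions. On the contralateral side the thinned classes were small, and their cycling counts are given for the moderate and then the severe library. Among nuclei with macrophage UMIs only they were 0 of 2 but 2 of 3. Among those with microglia UMIs only they were 6 of 44 and 5 of 25. Nuclei with both kinds gave 3 of 9 and 3 of 8, and nuclei with neither kind 0 of 15 and 0 of 13.

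**Figure D4:**
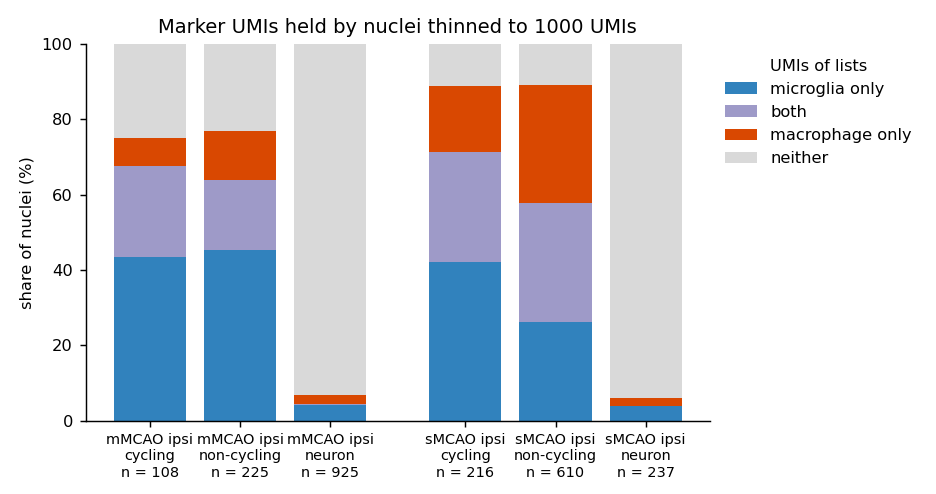
Share of nuclei (y axis, percent) by the marker UMIs they held after thinning to 1000 UMIs, for cycling, non-cycling and neuronal nuclei of the 2 MCAO ipsi libraries (x axis), where macrophage stands for the border macrophage and monocyte-derived lists together. Microglia UMIs only are held by 42.1% of cycling and 26.2% of non-cycling nuclei in sMCAO ipsi and by 43.5% and 45.3% in mMCAO ipsi.

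Genes of phagocytosis and lipid handling were expressed in both states. Of 15 tested genes 1 was called, beside 5% of all genes, so the count says nothing particular of the list. Apoe, the main lipid carrier of the brain, was lower in cycling nuclei by the fit (log2 fold change -0.83, SE 0.22, adjusted p 0.0181), at 196 and 269 CPM in mMCAO ipsi and sMCAO ipsi against 275 and 695 CPM. In the contralateral libraries it went the other way, at 404 and 178 CPM against 169 and 153 CPM, on 9 and 5 UMIs. Apoe was not called with no replicate block (adjusted p 1.0), by DESeq2 (-0.38, adjusted p 1.0), after thinning (-0.64, 0.170), without mMCAO ipsi (0.510) or without sMCAO ipsi (-0.12, 0.996). Spp1 (osteopontin), the most abundant gene of the list, was at 270, 892, 276 and 738 CPM in cycling and at 21.8, 63.1, 265 and 589 CPM in non-cycling nuclei, and was not called (log2 fold change 0.63, SE 0.27, adjusted p 0.228). It was called only without mMCAO ipsi (1.42, adjusted p 0.0146). The whole list had ratios of 0.848 (0.783 to 0.918) in mMCAO ipsi and 0.806 (0.773 to 0.841) in sMCAO ipsi. After thinning the ratio was 0.824 in sMCAO ipsi and turned to 1.24 in mMCAO ipsi.

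The summed level of the dendritic cell list was lower in cycling nuclei of both ipsilateral libraries. In sMCAO ipsi the list held 135 UMIs in cycling and 1568 UMIs in non-cycling nuclei, 209 against 1245 CPM, a ratio of 0.167 (interval 0.139 to 0.20), and in mMCAO ipsi the ratio was 0.550 (0.385 to 0.774). In sMCAO ipsi Cd74, the invariant chain of antigen presentation, was at 64.9 CPM in cycling and 478 CPM in non-cycling nuclei, RT1-Db1, an MHC class II chain, at 55.6 and 249 CPM, and Flt3, a growth factor receptor of dendritic cells, at 6.18 and 108 CPM. Xcr1, Clec9a and Ccr7 had no UMI in any cycling nucleus. Non-cycling nuclei held 2, 27 and 18 UMIs of them in sMCAO ipsi and 1, 3 and 0 in mMCAO ipsi. The zeros of Xcr1 thus say nothing of a difference. In mMCAO ipsi a UMI of the list was held by 11.4% of nuclei of either state. At equal depth the shares there overlapped, with 6.48% of cycling (interval 2.65 to 12.9%) and 9.33% of non-cycling nuclei (5.87 to 13.9%), beside 5.62% of neuronal ones. In sMCAO ipsi they were 7.41% (4.29 to 11.8%) and 19.7% (16.6 to 23.1%), beside 5.06% of neuronal nuclei. On the contralateral side the ratios were 0.330 and 6.60, on 1 and 5 UMIs in cycling nuclei. No gene of the list passed the filter on low counts over the 4 libraries.

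Lists of signalling and state genes showed 0 genes called by edgeR among the 29 tested, beside 5% of all genes: 10 for growth factor signalling, 9 for myeloid transcription factors, 6 for inflammation and 4 for glycolysis and hypoxia. An unadjusted p under 0.05 was reached by 0 rises and 2 falls of the 29 (Cd44 and Nfkbia) and by 360 rises and 465 falls over all genes, and DESeq2 called 0 of the 29 and gave 0 an unadjusted p under 0.05. Mef2c and Runx1, transcription factors of microglia and blood cells, had log2 fold changes of 0.10 and 0.30 and were not called (adjusted p 0.894 and 0.495). Nor was Tgfbr1, a receptor for the TGF-beta signal that maintains microglia (-0.35, adjusted p 0.427). Csf2rb, the shared receptor chain for GM-CSF and IL-3, was at 0, 143, 88.3 and 243 CPM in cycling and at 32.7, 45.1, 90.6 and 163 CPM in non-cycling nuclei (log2 fold change 0.37, adjusted p 0.525). Il1b, Il6 and Cxcl10 had no UMI in any cycling nucleus. Non-cycling nuclei were near 0 too, with 11, 3 and 5 UMIs of them in sMCAO ipsi and 1, 1 and 0 in mMCAO ipsi, and in sMCAO ipsi they held more UMIs in all (1259197 against 647352).

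RNA of neurons and oligodendrocytes was less abundant in cycling nuclei, while that of other brain cells varied between libraries. The rule allowed at most 3 UMIs of Snap25, Syt1 and Rbfox3 in a nucleus of any depth, and cycling nuclei were deeper. A lower share of neuronal RNA in cycling nuclei can thus follow from the selection, so the values of neuron genes are a description and not a test. Of 3 tested neuron genes 2 were called lower, Kcnip4, a potassium channel partner (log2 fold change -0.87, adjusted p 0.00157), and Nrg3, a growth factor (-0.69, adjusted p 0.0140), both in 4 of 4 libraries. With no replicate block neither was called (adjusted p 1.0 for both), and DESeq2 called Kcnip4 (0.0190) and not Nrg3 (0.0601). Neither was called without mMCAO ipsi (0.161 and 0.322), and Nrg3 was not called without sMCAO ipsi (0.0719) or with at least 3 cycle UMIs (0.0774). At equal depth, in the 3 libraries that could be fitted after thinning, neither was called, with log2 fold changes of -0.61 (adjusted p 0.185) and -0.67 (0.121). All 8 tested oligodendrocyte genes had estimates below 0, with a median log2 fold change of -0.49. The neuron list had ratios of 0.578 to 0.752 and the oligodendrocyte list of 0.354 to 0.892. The astrocyte list had ratios of 0.894 to 2.29 and the endothelial list of 0.440 to 1.83, and 0 of 3 and 0 of 2 tested genes were called. Mitochondrial UMIs were limited to at most 5% when nuclei of both states were chosen, so the following counts are a description and not a test. Of 11 tested mitochondrial genes 7 were called lower and 0 higher, beside 1.95% and 3.06% of all genes. Their sum was at 3190, 1178, 1062 and 3836 CPM in cycling and at 1619, 1451, 1735 and 7974 CPM in non-cycling nuclei, so that mMCAO contra went against the other libraries. Of these 7 calls 0 were made with no replicate block, by DESeq2 or without sMCAO ipsi, 1 without mMCAO ipsi and 0 after thinning, where 5 of the 7 genes were tested. The part of free RNA in the lower calls was not tested.

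Outside the lists and the rule 119 genes were called higher and 106 lower. The 10 largest rises that met a mean of at least 50 CPM and 1 direction in all libraries were Troap, Kif18b, Depdc1, Hjurp, Nek2l1, Spag5, Ankle1, Arhgap19, Cdca2 and Gtse1, with log2 fold changes of 3.37 down to 3.05. Most of these are known from mitosis, such as Kif18b, a kinesin that shortens microtubules, and Hjurp, which loads the centromeric histone. Troap, which binds spindle microtubules, was at 180, 178, 141 and 127 CPM against 5.45, 0, 12.0 and 15.1 CPM.

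The 10 largest falls by the same rule were Ly49si2, Atxn1, Rgs6, L3mbtl3, Il1rapl2, Tafa1, Dnm1, Pde4d, ENSRNOG00000067579 and Ralgps2, with log2 fold changes of -2.19 to -1.37. Ly49si2, a receptor of the Ly49 family of natural killer and myeloid cells, was at 0, 0, 55.2 and 40.2 CPM in cycling and at 32.7, 36.1, 108 and 291 CPM in non-cycling nuclei (SE 0.30, adjusted p 1.5e-06), and it was not called with no replicate block (0.723). Ly49 genes are near-identical copies, so its count is uncertain. Pde4d, a phosphodiesterase that breaks down cyclic AMP, was at 225, 250, 447 and 490 CPM against 643, 613, 828 and 1723 CPM (log2 fold change -1.44, adjusted p 3.4e-06), and with no replicate block it was not called (0.155). Rgs6, Il1rapl2 and Tafa1 are mainly known from neurons, whose RNA the rule limited through its neuronal genes.

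A few genes are added that were chosen after their values were seen. C1qb, a subunit of complement C1q, was higher in cycling nuclei of all 4 libraries, at 135, 250, 138 and 258 CPM against 92.7, 90.1, 88.9 and 127 CPM (log2 fold change 0.86, SE 0.20, adjusted p 0.00538). Sdk1, a cell adhesion molecule, was at 3595, 2641, 2681 and 1917 CPM against 2486, 1713, 1588 and 538 CPM (0.85, SE 0.21, adjusted p 0.00954), and the guidance ligand Slit2 changed by 0.83 (adjusted p 0.00353). Lower genes included the inhibitory receptor Lilrb4, at 44.9, 143, 88.3 and 145 CPM against 16.4, 54.1, 174 and 621 CPM (-1.61, adjusted p 1.3e-05), and Itgal, an integrin subunit of leukocytes (-0.97, adjusted p 0.0162). Lilrb4 was lower in cycling nuclei of both ipsilateral libraries and higher in those of both contralateral ones. Neither Lilrb4 nor Itgal was called with no replicate block (adjusted p 1.0 for both) or by DESeq2 (1.0 and 0.925), Lilrb4 was not called without sMCAO ipsi (-0.65, 0.740), and Itgal was not called after thinning (-0.66, 0.545). DESeq2 called none of C1qb, Sdk1 and Slit2 (adjusted p 0.248, 0.0913 and 0.0913). After thinning Slit2 was called (adjusted p 0.0153) and C1qb and Sdk1 were not (0.862 and 0.0941). Without mMCAO ipsi or without sMCAO ipsi neither C1qb (0.107 and 0.479) nor Sdk1 (0.0751 and 0.0769) was called, and Slit2 was not called without sMCAO ipsi (0.340).

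Cycling nuclei of the severe and the moderate ipsilateral library were set side by side. There is 1 library of each severity, so the ratios have counting intervals and no test. The microglia list differed little in cycling nuclei (sMCAO ipsi over mMCAO ipsi 0.923, interval 0.829 to 1.03), while in non-cycling nuclei it was lower in sMCAO ipsi (0.612, 0.563 to 0.665). The monocyte-derived list was 1.61 times as high in cycling (1.35 to 1.92) and 2.78 times as high in non-cycling nuclei (2.49 to 3.11), and the dendritic list 1.64 times (1.17 to 2.35) and 5.39 times (4.52 to 6.48). The border macrophage list was 3.37 times as high in cycling and 3.36 times as high in non-cycling nuclei, and the phagocyte and lipid list 1.82 and 1.92 times. Single genes with higher levels in cycling nuclei of sMCAO ipsi included Spp1 (276 and 738 CPM in mMCAO ipsi and sMCAO ipsi, ratio 2.68, interval 2.15 to 3.35), the galectin Lgals3 (3.21, 2.11 to 5.07), Csf2rb (2.75, 1.87 to 4.15) and the haemoglobin scavenger receptor Cd163 (2 and 50 UMIs, ratio 14.0, 3.68 to 119). In non-cycling nuclei the ratios of these 4 genes were 2.22 (1.87 to 2.66), 2.78 (2.10 to 3.74), 1.80 (1.32 to 2.48) and 3.46 (1.72 to 7.89) in the same order, so each interval overlapped that of the cycling nuclei. Those with lower levels included P2ry12 (0.756, 0.625 to 0.917) and the neuron list (0.273, 0.231 to 0.321), which were at 0.583 (0.499 to 0.681) and 0.236 (0.215 to 0.260) in non-cycling nuclei.

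Cell cycle lists were set side by side in the same way. Replication genes were 1.48 times as high in cycling nuclei of sMCAO ipsi (1.32 to 1.66) and DNA repair genes 1.33 times (1.19 to 1.5), and mitotic cyclins and kinases 1.20 times (1.09 to 1.33), while spindle genes were at 0.968 (0.907 to 1.03) and condensin genes at 1.08 (0.966 to 1.20). In non-cycling nuclei the same ratios were 1.0 (0.912 to 1.11) for replication, 0.862 (0.748 to 0.994) for DNA repair, 0.646 (0.556 to 0.751) for mitotic cyclins and kinases, 0.524 (0.468 to 0.587) for spindle and 0.705 (0.610 to 0.816) for condensin genes. Cycling nuclei of sMCAO ipsi also had the higher median depth, 1795 UMIs against 1216, and its part in these ratios was not tested.

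**Figure D5:**
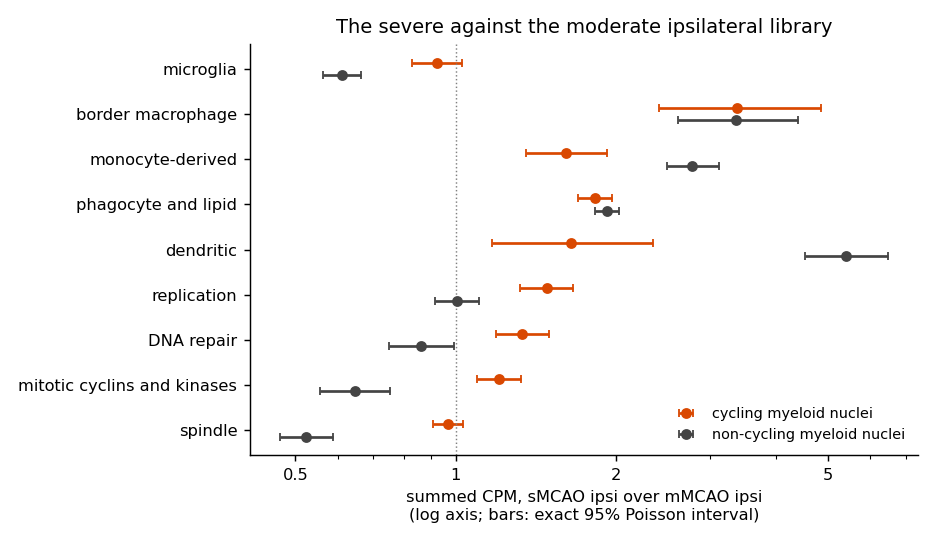
Ratio of summed CPM of sMCAO ipsi over mMCAO ipsi (x axis, log scale) for 9 lists (y axis) in cycling (orange) and non-cycling (dark) myeloid nuclei, with exact 95% Poisson intervals as bars. For the microglia, monocyte-derived and dendritic lists the cycling ratios of 0.923, 1.61 and 1.64 lie nearer to 1 than the non-cycling ratios of 0.612, 2.78 and 5.39, and for spindle genes the cycling ratio is 0.968.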

How the data were processed

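Single-nucleus RNA was counted in 6 libraries. The authors sequenced 10x 5' libraries, aligned them and counted UMIs with Cell Ranger 7.0.0 on mRatBN7.2 with intronic reads included, and deposited raw UMI counts per gene and called nucleus (30560 genes). Their later removal of free RNA and of doublets is not in these counts.

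The members and the gene lists were chosen with earlier results of these data known. Nuclei were selected by the limits given above, with no doublet removal. Scrublet scores (scanpy 1.11.5) served in an alternative without the highest 5%. Counts were summed per library and state, because nuclei are not replicates, and tested with edgeR 4.0.16 (quasi-likelihood, TMM factors, library as a block, Benjamini-Hochberg adjustment, R 4.3.3) over the 4 MCAO libraries with at least 10 cycling nuclei, which leaves 3 residual degrees of freedom. The library block pairs both states of the same rats. Shares have exact Clopper-Pearson intervals, and ratios of summed CPM (UMIs of a list over all UMIs of that state and library) exact Poisson intervals, all for counting error only. Thinning drew 1000 UMIs from each nucleus that held at least 1000, and the limits on marker UMIs were then applied again to the thinned counts. Named genes outside the lists were the 10 largest called rises and falls with at least 50 CPM in the higher state and 1 direction in all libraries. Of 317 list genes 298 could be matched by symbol. Tested on simulated data for cycling against non-cycling nuclei (5858 genes), edgeR recovered 29% of 2-fold and 88% of 4-fold changes with 3 false calls, and DESeq2 1.42.0 16% and 82% with 0. For cycling myeloid against OPC nuclei (7468 genes) edgeR recovered 6% and 46%. The simulated libraries shared 1 mean profile and a fixed dispersion, with no other difference between libraries, so recovery and false calls may differ in the real data.

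Alternatives were RLE factors, no filter on low counts, no replicate block, DESeq2, leaving out each library, stricter limits on cycle or myeloid UMIs, non-cycling nuclei with 0 cycle UMIs, the doublet scores, thinning, and factors without cell cycle genes. Promoters were taken from RefSeq (GRCr8) and searched on both strands. Results of 2 list genes are not reported here.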

Additional observations from a re-analysis of the deposited data

Results flagged for a closer look

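Of the 31 lists, all but the 11 cell cycle lists were searched for a split between the 2 sides in either direction. With 2 libraries on each side some lists will split in this way by chance. In 4 lists both contralateral libraries had more of the list in cycling than in non-cycling nuclei and both ipsilateral libraries less. After thinning, mMCAO ipsi turned above 1 in 3 of them (phagocyte and lipid 1.24, monocyte-derived 1.09, border macrophage 1.04). The difference was not tested, and the contralateral values rest on 15 and 22 cycling nuclei. For the border macrophage list the ratios were 10.1 and 3.43 on the contralateral and 0.922 and 0.925 on the ipsilateral side, and the median contralateral ratio was 7.35 times the ipsilateral one, with 15 of the 16 UMIs in mMCAO contra from 1 nucleus. For the monocyte-derived list the ratios were 1.37 and 4.17 against 0.767 and 0.444 (4.58 times), with 3 UMIs in mMCAO contra. For the phagocyte and lipid list they were 1.68 and 2.10 against 0.848 and 0.806 (2.28 times), with 39 of the 117 UMIs in sMCAO contra from 1 nucleus. For glycolysis and hypoxia genes they were 1.13 and 1.83 against 0.904 and 0.769 (1.77 times).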

How the results depend on the processing

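For the 88 named and list genes followed across settings and the 4 of the OPC comparison no direction turned, but over all settings 122 values lost their call, 1 gained one and 1064 did neither. Some list ratios crossed 1: microglia in sMCAO contra and over the libraries' median, and monocyte-derived and phagocyte and lipid (1.24) in mMCAO ipsi, after thinning, border macrophage in sMCAO contra with at least 5 myeloid UMIs, and border macrophage in mMCAO ipsi in both of these settings (1.04 and 1.14). With no replicate block 106 genes were called higher and 0 lower (115 lower at an unadjusted p under 0.05), against 179 and 114 with the pairing. DESeq2 called 12 lower, thinning gave 109 higher, and no filter on low counts gave 181 lower. Leaving out 1 library gave 86 to 252 genes higher and 13 to 189 lower, lowest without sMCAO ipsi. Against OPC nuclei DESeq2 called 216 higher and 357 lower, and 488 were lower with no replicate block. The cause of these shifts was not tested. The cycling share moved with the limits: in Sham L it was 0 with at least 3 cycle UMIs, with at least 5 myeloid UMIs and after thinning, in mMCAO contra 4.25%, 7.48% and 12.9% in the same order, then 12.6%, 18.6% and 20.4% in sMCAO contra, in mMCAO ipsi 17.6%, 33.4% and 32.4%, and in sMCAO ipsi 15.8%, 26.2% and 26.2%. The microglia ratio after thinning was 1.41 in sMCAO contra and 1.21 in sMCAO ipsi (1.20 with at least 5 myeloid UMIs), and its median over libraries 1.21 against 0.915. The border macrophage ratio was 0.568 in mMCAO ipsi and 0.738 in sMCAO ipsi with at least 3 cycle UMIs, 0.812 in sMCAO contra with at least 5 myeloid UMIs and 0.731 in sMCAO ipsi after thinning. The monocyte-derived ratio was 0.522 in sMCAO ipsi with at least 5 myeloid UMIs, and 1.09 in mMCAO ipsi and 0.516 in sMCAO ipsi after thinning. mMCAO contra had under 10 nuclei after thinning and with at least 3 cycle UMIs and was left out of those fits, and the OPC comparison could not be fitted after thinning or with 1 library left out. Depth limits Sham, with 49 myeloid nuclei, and contralateral lists of few UMIs.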
